A study of Homo sapiens with 6 samples.

Results

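The mRNAs of 8 keratins (KRT7, KRT8, KRT10, KRT18, KRT19, KRT80, KRT81 and KRT86) and of vimentin (VIM) were compared between DMSO-treated and BRL-50481-treated MDA-MB-231 cells. These 9 genes were listed by name as intermediate filament genes of a mesenchymal breast line, with earlier results of these data known, and all 9 were present among the 15651 genes of the deposited table. MDA-MB-231 is an established human line of triple-negative breast cancer (TNBC), grown in DMEM with fetal bovine serum. BRL-50481 is a selective inhibitor of the phosphodiesterase PDE7, an enzyme that breaks down cAMP, and DMSO is its solvent. The RNA was sequenced in 3 libraries from DMSO-treated and 3 from BRL-50481-treated cells. The study describes them as 3 biological replicates per group. The study and the protocol text of the sample records give 50 μM BRL-50481 for 72 h, whereas the treatment tag of the same records gives 5 μM and 48 h, and the tag of the DMSO libraries gives neither. A single cell line was treated with a single dose, so the values describe this line.

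Intermediate filaments are rope-like polymers that give cells mechanical strength. Keratins are the filaments of epithelial cells and form only when a type I chain pairs with a type II chain, as KRT18 does with KRT8 in simple epithelia. Vimentin is a type III protein that polymerizes with itself and is typical of mesenchymal cells. Breast cancer lines that have moved towards a mesenchymal state often carry vimentin and simple keratins together. Among the members, KRT10, KRT18 and KRT19 are type I, and KRT7, KRT8, KRT80, KRT81 and KRT86 are type II.

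The values are normalized counts, that is, reads on a gene scaled by the size factor of its library, and the 6 libraries held 30750573 to 33446984 reads on genes. The log2 of the normalized count with 1 added was compared with limma over the 15246 genes that had at least 4 normalized counts in at least 3 libraries, with a gene called where its p-value after Benjamini-Hochberg adjustment was under 0.05. SE stands for the standard error of a log2 difference, BRL-50481 minus DMSO. All 9 members passed that filter. Differences between replicates exceeded counting noise (chi-square per degree of freedom 2.63 to 22.1), and DMSO replicate 1 lay apart from the other DMSO libraries. Its log2 values minus the mean of DMSO replicates 2 and 3 had a median of −0.20 over the 9 members and −0.011 over all genes tested, and it was the lowest DMSO library in 8 of the 9 members. The share of all genes in which it was lowest was not counted. The change without DMSO replicate 1 is therefore given for each member. RNA was pooled over all cells of a culture, so that fewer cells of one kind and less RNA per cell cannot be told apart.

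PDE7A, which encodes the target of BRL-50481, had 406, 405 and 409 normalized counts in the DMSO libraries and 341, 292 and 261 in the BRL-50481 libraries, where it was lower (log2 fold change −0.45, limma SE 0.103, adjusted p = 0.00199). The line was checked against marker genes. Of 16 mesenchymal markers all 16 were in the table, among them AXL, CD44 and MSN with 45015, 31414 and 28829 normalized counts in DMSO. CDH2 (16.5 normalized counts in DMSO) and SPARC (14.0), which also belong to that list and are named after their values were seen, were scarce. Of 18 luminal epithelial markers 15 were in the table, without ESR1, the estrogen receptor gene. PGR, the progesterone receptor gene, had 1.67 and CDH1, the E-cadherin gene, 38.2 normalized counts in DMSO, whereas EPCAM had 764 and ERBB2 1677. The summed level of the luminal list was 14001 to 16061 normalized counts over the DMSO libraries and 13347 to 14376 over the BRL-50481 libraries. Most of it came from CLDN4 and CLDN7, with means of 6686 and 4224 normalized counts in DMSO. Of 10 leukocyte and endothelial markers 7 were in the table, without PTPRC, CD3E and VWF. Their summed level was 4682 to 5067 normalized counts over the DMSO libraries and 6188 to 6524 over the BRL-50481 libraries, mostly from CD68, a lysosomal protein, and the part of these genes in the results was not tested.

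After BRL-50481, vimentin and 5 keratins (KRT7, KRT8, KRT19, KRT80 and KRT86) were higher, KRT10 and KRT18 were lower, and KRT81 did not pass the threshold. Thus 8 of the 9 members were called, where 58.7% of all genes tested were called (28.9% higher and 29.8% lower). Among the 9792 genes averaging at least 300 normalized counts, as all 9 members did, 68.5% were called. Of the 5 type II keratins 4 were higher, KRT86 narrowly, and none was lower. Of the 3 type I keratins 1 was higher and 2 were lower. Outside the members, the type I keratins KRT15 and KRT34 were higher, as given below. In 7 members the 2 groups did not overlap, 5 with BRL-50481 higher and 2 with BRL-50481 lower, where 31.9% and 32.3% of all genes were apart in these directions (64.2% in either). The read-based tests edgeR and DESeq2 gave all 9 members the call of limma and called 58.6% and 55.4% of all genes. The changes lay between −0.46 and 0.58 on the log2 scale, with standard errors of 0.0453 to 0.105. None of the 9 exceeded 1 in size. Of all genes tested 8.04% were called and exceeded 1, a share too small to set 9 genes apart. The median log2 fold change without its sign was 0.33 over all genes tested and 0.27 over those averaging at least 300 normalized counts. VIM, KRT7, KRT10, KRT19 and KRT80 exceeded both values in size, and the other members did not. The median log2 fold change of the members was 0.27 and that of all genes tested 0.015.

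**Figure D1:**
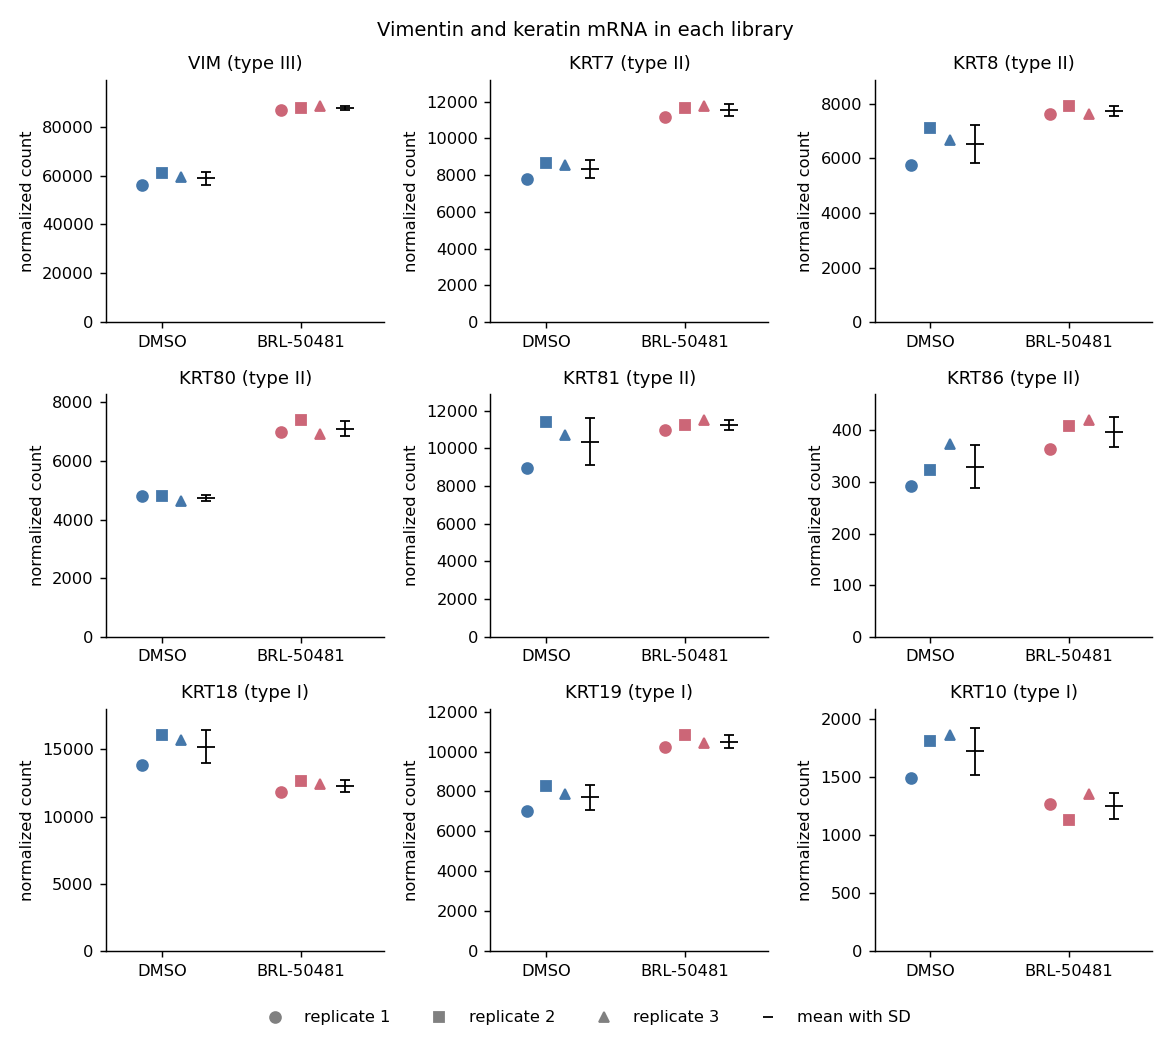
Normalized counts of the 9 genes in each library (vertical axes, each from 0), with DMSO in blue, BRL-50481 in red, a symbol for each replicate and the group mean with its SD beside the points. The groups are apart in every panel except those of KRT81 and KRT86, and DMSO replicate 1 (circle) is the lowest blue point in all panels but that of KRT80.

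Vimentin was by far the most abundant member and ranked at 13 of all genes by mean normalized count. VIM (ENSG00000026025, chr10:17228241-17237593, plus strand of hg38, 10 exons) had 56075, 60934 and 59513 normalized counts in DMSO replicates 1 to 3 and 86701, 87649 and 88612 in BRL-50481 replicates 1 to 3. The treated libraries lay close together, and the lowest of them was 25767 normalized counts above the highest DMSO library. The group means were 58840.4 ± 2498 and 87654 ± 956 normalized counts (± SD, 3 libraries each). The log2 difference was 0.58 (limma SE 0.0453, adjusted p = 2.91e-07). As a share of all normalized counts, VIM took 0.180% ± 0.00708 with DMSO and 0.283% ± 0.00255 with BRL-50481 (± SD, 3 libraries each). When single libraries were left out, the difference lay between 0.54, without DMSO replicate 1, and 0.60. It was 0.65 after a correction for transcript length and GC content and 0.85 after quantile normalization, both above the main value.

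The promoter of VIM is shown because it is the member with the highest level and among those with the largest change. The 250 bases before its annotated start (chr10:17227991-17228240, plus strand of hg38, RefSeq) are given with motif matches in capitals.
VIM: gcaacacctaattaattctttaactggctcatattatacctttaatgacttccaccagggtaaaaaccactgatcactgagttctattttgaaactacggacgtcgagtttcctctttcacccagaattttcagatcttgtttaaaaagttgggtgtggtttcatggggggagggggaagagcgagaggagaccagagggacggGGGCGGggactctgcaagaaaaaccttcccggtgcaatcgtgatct
The capitals mark the single match to GGGCGG, the GC box bound by SP1-type factors, whose first base lies at −46, counting the base before the start as −1. On both strands, 42.6% of 35116 RefSeq windows of the same length hold GGGCGG. The cAMP response element TGACGTCA (1.6% of windows) and its first 5 bases TGACG (21.2%), the AP-1 motif TGANTCA (6.6%) and the E-box CACCTG (17.5%) had no match in these letters. TATAAA (10.7%) and CCAAT (32.0%) had none either.

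The simple-epithelial pair KRT8 and KRT18 moved in opposite directions. KRT8 (ENSG00000170421) and KRT18 (ENSG00000111057) are neighbours on chromosome 12, at chr12:52897187-52949954 on the minus strand and chr12:52948871-52952906 on the plus strand of hg38. KRT8 had 5772, 7112 and 6678 normalized counts in the DMSO libraries and 7613, 7928 and 7608 in the BRL-50481 libraries. Every treated library lay above every DMSO library, by 496 normalized counts at the closest. The group means were 6521 ± 684 and 7716 ± 184 normalized counts (± SD, 3 libraries each). The log2 difference was 0.25 (limma SE 0.0663, adjusted p = 0.00585). KRT18, the most abundant keratin, had 13838, 16072 and 15706 normalized counts in the DMSO libraries and 11820, 12616 and 12399 in the BRL-50481 libraries. Every treated library lay below every DMSO library, with means of 15205 ± 1198 and 12278 ± 412 normalized counts (± SD, 3 libraries each) and a log2 fold change of −0.31 (limma SE 0.0575, adjusted p = 0.000504). Without DMSO replicate 1, KRT8 had a log2 fold change of 0.16 and KRT18 of −0.37, both still called (adjusted p at most 0.000363 in limma). KRT8 was not called by limma without a variance trend (adjusted p = 0.0592). A correction of each library for transcript length and GC content moved KRT18 to −0.20, still called.

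Within each library, the ratio of KRT8 to KRT18 normalized counts does not depend on the scaling of that library. It was 0.417, 0.442 and 0.425 in DMSO and 0.644, 0.628 and 0.614 in BRL-50481. The difference of the mean log2 ratio was 0.55, or 1.47-fold (exact two-sided permutation p = 0.1, the smallest that 3 libraries against 3 allow). Reads of both genes can be lost to retrotransposed copies, since GENCODE names 51 pseudogenes after KRT8 and 68 after KRT18. Of the 76-base stretches of their canonical transcripts, the length of the reads, 18.2% for KRT8 and 5.8% for KRT18 also occurred in transcripts of other genes, where a read cannot be placed at a single gene. Some annotated KRT8 exons lie opposite KRT18 exons, as do those of antisense genes opposite KRT7, KRT10, KRT86 and VIM, and the counting was by strand.

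KRT7 and KRT19, keratins of simple and ductal epithelia, rose by similar amounts. KRT7 (ENSG00000135480, chr12:52232520-52252186, plus strand), a type II chain, had 7773, 8658 and 8538 normalized counts in the DMSO libraries and 11154, 11625 and 11777 in the BRL-50481 libraries. Its means were 8323 ± 480.0 and 11519 ± 325 normalized counts (± SD, 3 libraries each). The log2 difference was 0.47 (limma SE 0.0515, adjusted p = 5.07e-06). KRT19 (ENSG00000171345, chr17:41523617-41528308, minus strand), a short type I chain without a tail domain, had 7019, 8259.8 and 7862 normalized counts in the DMSO libraries and 10209, 10832 and 10445 in the BRL-50481 libraries. Both genes were at least 1949 normalized counts higher in the lowest treated library than in the highest DMSO library. For KRT19 the means were 7714 ± 634 and 10495 ± 315 normalized counts (± SD, 3 libraries each). The log2 difference was 0.45 (limma SE 0.0587, adjusted p = 2.51e-05). Without DMSO replicate 1, the log2 fold change was 0.42 for KRT7 and 0.38 for KRT19, both still called. No 76-base stretch of either canonical transcript occurred in another gene.

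KRT80 was higher and KRT10 lower with BRL-50481. KRT80 (ENSG00000167767, chr12:52168996-52192014, minus strand) encodes a type II keratin found in many epithelia. It had 4796, 4818 and 4623 normalized counts in the DMSO libraries and 6999.6, 7387 and 6921 in the BRL-50481 libraries, with means of 4746 ± 107 and 7103 ± 249.7 (± SD, 3 libraries each). Its log2 fold change of 0.58 (limma SE 0.0476, adjusted p = 4.13e-07) differed from that of VIM by less than either standard error. After quantile normalization the values of KRT80 and VIM were 0.62 and 0.85. It was the member in which DMSO replicate 1 did not lie lowest, and the change without that library was 0.59.

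KRT10 (ENSG00000186395, chr17:40818117-40822614, minus strand), a type I keratin best known from the upper layers of the epidermis, had 1490.3, 1814 and 1864 normalized counts in DMSO. In BRL-50481 it had 1272, 1130.1 and 1353 normalized counts, all below the lowest DMSO library. The means were 1723 ± 203 and 1252 ± 113 normalized counts (± SD, 3 libraries each), and KRT10 dropped by 0.46 in log2 units (limma SE 0.0890, adjusted p = 0.000653). Without DMSO replicate 1, its log2 fold change was −0.56, still called. The 250 bases before its start (chr17:40822615-40822864, minus strand of hg38, RefSeq) are shown for comparison with VIM, since the change was in the other direction.
KRT10: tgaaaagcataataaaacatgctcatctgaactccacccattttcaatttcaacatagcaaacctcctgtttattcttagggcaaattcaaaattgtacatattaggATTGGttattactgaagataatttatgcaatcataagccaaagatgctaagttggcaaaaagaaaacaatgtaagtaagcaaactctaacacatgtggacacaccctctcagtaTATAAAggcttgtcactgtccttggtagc
The capitals mark CCAAT, read on the other strand as ATTGG, with its first base at −143, and TATAAA at −29. The GC box, the cAMP response element and its first 5 bases, the AP-1 motif and the E-box, spelled out for VIM, had no match in these letters. Promoter entries were matched for 3 of the 9 members, VIM, KRT10 and KRT8, and the KRT8 entry starts 21393 bases upstream of the start of its canonical transcript.

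**Figure D2:**
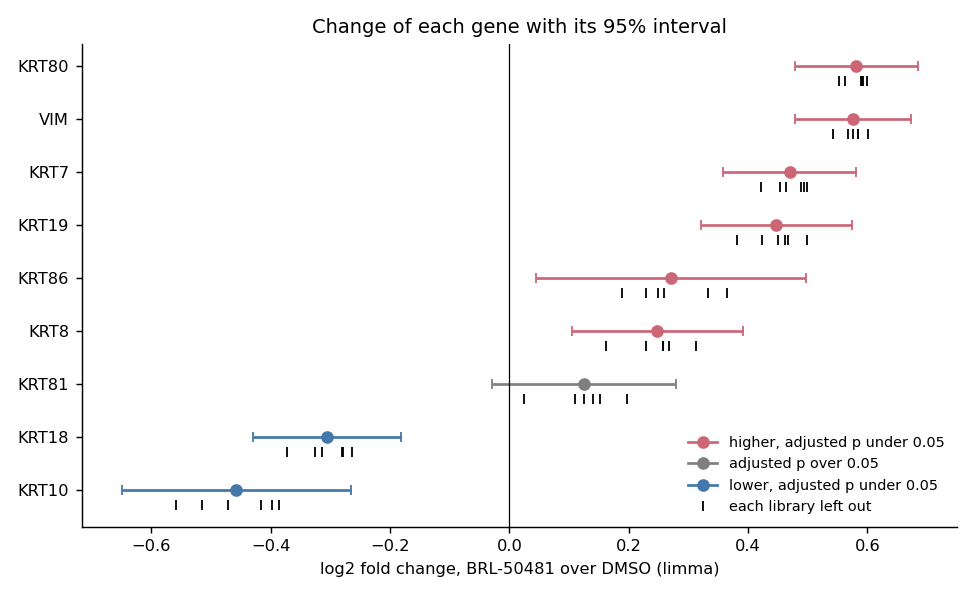
Log2 fold change of each gene, BRL-50481 over DMSO (horizontal axis, dots), with 95% confidence intervals from limma as bars, coloured by call, and ticks below each dot for the values with each library left out in turn. Intervals of KRT80, VIM, KRT7 and KRT19 lie above 0.32, those of KRT18 and KRT10 below −0.18, and that of KRT81 spans 0.

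The hair-type keratins KRT81 and KRT86 are close paralogs, so that some of their reads cannot be assigned to either gene. Beyond a fit with both genes summed, given below, the part of such reads in their changes was not tested. Both encode type II chains of the hair shaft, and KRT81 (ENSG00000205426, chr12:52285913-52291534, minus strand) lies inside the span of KRT86 (ENSG00000170442, chr12:52249300-52309163, plus strand). Their coding sequences (1518 and 1461 bases) were identical in 90.1% of 1522 aligned columns, with an unbroken identical run of 605 bases. Of the 76-base stretches of the canonical transcripts, 36.3% for KRT81 and 32.5% for KRT86 also occurred in another gene, most of them in each other. The following 76 coding bases, 325 to 400 in both genes, are shown because a read from them cannot be assigned to either gene. They span an intron between exons 1 and 2 of KRT81 (chr12:52290256-52291141) and exons 3 and 4 of KRT86 (chr12:52302241-52303130).
KRT81 and KRT86: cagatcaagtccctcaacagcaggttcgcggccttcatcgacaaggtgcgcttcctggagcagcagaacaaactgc
The next window, coding bases 1251 to 1326 in both genes, is the one of 76 bases with most differences, and its 19 differing bases are in capitals. It spans exons 8 and 9 of KRT81 (chr12:52286447-52286819) and exons 10 and 11 of KRT86 (chr12:52308236-52308450), and a read from it can be assigned.
KRT81: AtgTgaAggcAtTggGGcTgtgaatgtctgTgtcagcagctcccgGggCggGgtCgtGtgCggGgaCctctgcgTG
KRT86: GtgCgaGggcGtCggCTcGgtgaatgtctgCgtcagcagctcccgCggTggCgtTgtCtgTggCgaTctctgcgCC

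KRT81 had 8969, 11399 and 10704 normalized counts in the DMSO libraries and 10996, 11237 and 11486 in the BRL-50481 libraries. DMSO replicate 2 lay inside the range of the treated libraries, so the groups overlap. The means were 10357 ± 1252 and 11240 ± 245 normalized counts (± SD, 3 libraries each), and the log2 fold change of 0.13 did not pass the threshold (95% interval −0.030 to 0.28, adjusted p = 0.152 in limma). It was called without DMSO replicate 2 (0.20, adjusted p = 0.0168 in limma) and after the correction for length and GC content (0.20, adjusted p = 5.56e-05 in limma), and lay at 0.025 without DMSO replicate 1. KRT86, the least abundant member, had 293, 323 and 374 normalized counts in the DMSO libraries and 363, 408 and 419.7 in the BRL-50481 libraries. DMSO replicate 3 lay above BRL-50481 replicate 1, and the means were 330 ± 41.0 and 397 ± 29.7 normalized counts (± SD, 3 libraries each). Its log2 fold change of 0.27 (limma SE 0.105, adjusted p = 0.0402) passed the threshold narrowly and no longer did so without DMSO replicate 1 (0.19, adjusted p = 0.0897 in limma) or without any of 3 other libraries, namely DMSO replicate 2 and BRL-50481 replicates 2 and 3. With both genes summed before the fit, the log2 fold change was 0.13 (adjusted p = 0.135 in limma).

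Levels of different genes were compared per kilobase of the canonical transcript. In DMSO, VIM had 27317 ± 1160 normalized counts per kilobase, ahead of KRT18 (10761 ± 848), KRT19 (5549 ± 456), KRT81 (5369 ± 649) and KRT7 (5122 ± 295; ± SD, 3 libraries each). KRT19, KRT81 and KRT7 overlapped with their neighbours in this order, whereas KRT8 (3655 ± 383), KRT80 (1225 ± 27.5), KRT10 (804 ± 94.7) and KRT86 (147 ± 18.2) followed without overlap. In BRL-50481 no neighbours overlapped, and KRT7 (7088 ± 199.7 normalized counts per kilobase) stood before KRT81 (5827 ± 127). VIM reached 40693.5 ± 444 and KRT18 8689 ± 291 normalized counts per kilobase.

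The make-up of the keratin transcripts differed between the groups. KRT18 made up 33.0% ± 0.239 of the summed keratin level per kilobase with DMSO and 24.1% ± 0.234 with BRL-50481 (± SD, 3 libraries each). KRT19 went from 17.0% ± 0.128 to 20.9% ± 0.266 and KRT7 from 15.7% ± 0.429 to 19.6% ± 0.250. KRT81 held 16.4% ± 0.645 and 16.2% ± 0.275, which differ by less than the spread between replicates. The ratio of type II to type I keratins per kilobase was 0.907 ± 0.00701 with DMSO and 1.14 ± 0.0116 with BRL-50481 (± SD, 3 libraries each), a difference of 0.34 on the log2 scale (exact two-sided permutation p = 0.1, the smallest possible). The ratio of VIM to the 8 keratins per kilobase was 0.880, 0.813 and 0.824 in DMSO and 1.15, 1.11 and 1.13 in BRL-50481. Every treated library lay above every DMSO library, with a difference of 0.43 on the log2 scale (exact two-sided permutation p = 0.1, the smallest possible). After quantile normalization this difference was 0.65. These ratios depend on the transcript lengths chosen, from GENCODE, while the reads were counted on another annotation.

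**Figure D3:**
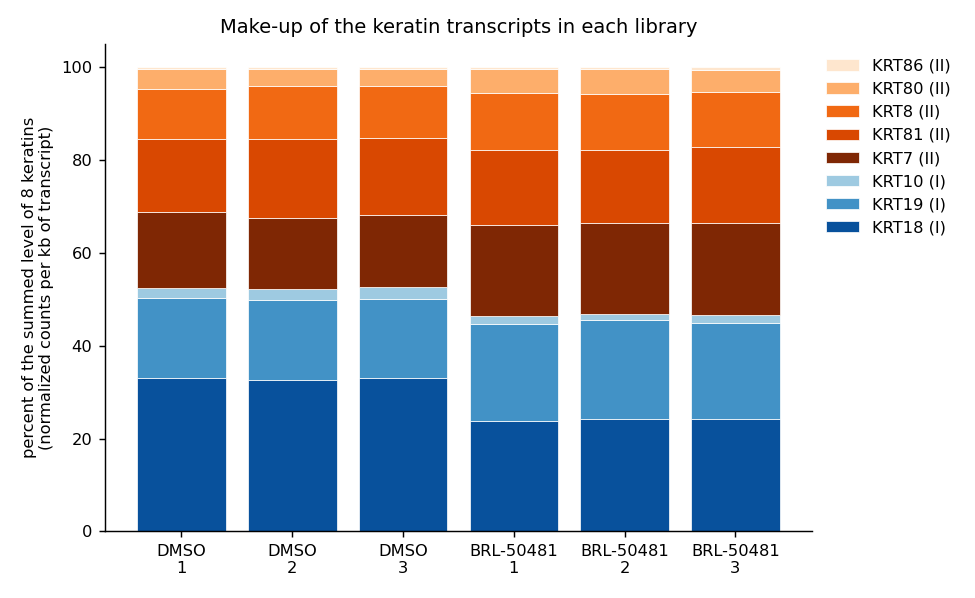
Share of each keratin in the summed level of the 8 keratins, in normalized counts per kilobase of transcript (vertical axis, percent), one bar per library, with type I in blue and type II in orange. The KRT18 segment is 32.7% to 33.1% in the DMSO bars and 23.8% to 24.3% in the BRL-50481 bars.

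**Figure D4:**
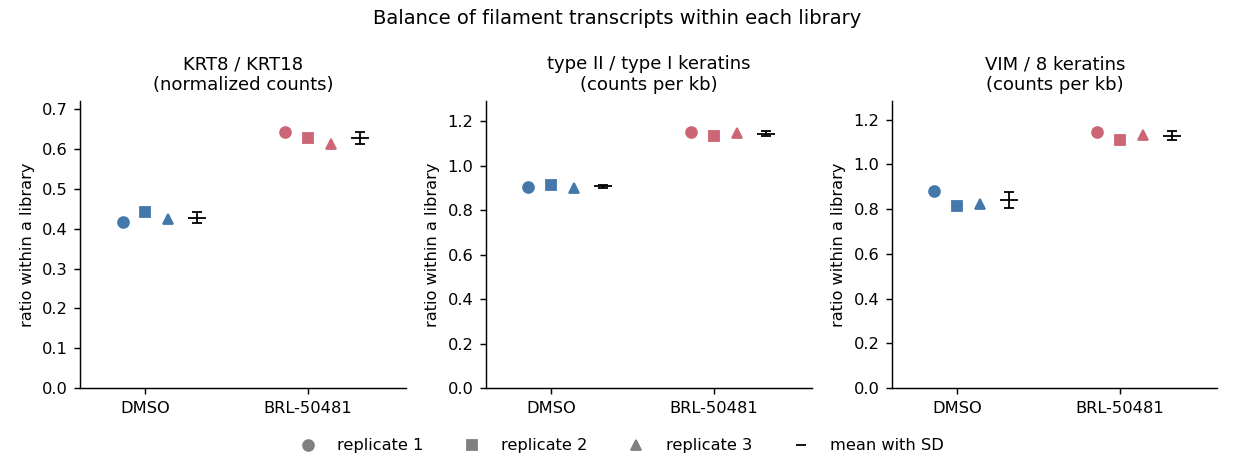
Ratios within each library (vertical axes, each from 0) of KRT8 to KRT18, of type II to type I keratins and of VIM to the 8 keratins, with a symbol for each replicate and the mean with its SD beside the points. In all 3 panels every BRL-50481 library (red) lies above every DMSO library (blue).

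The chromosomal position of the members was examined next. Of the 9 members 6 lie in the keratin cluster on chromosome 12, which spans 783911 bases from KRT80 to KRT18 (chr12:52168996-52952906 of hg38) and holds 27 protein-coding keratin genes in GENCODE. Of all genes in this span, 9 were in the table, the 6 members with KRT79, KRT83 and KRT85. Of these 9 genes 4 were higher and 1, KRT18, was lower, and all of those called are members already counted above. Over all genes tested, 28.9% were higher and 29.8% lower. KRT79, KRT83 and KRT85 did not pass the threshold, KRT79 and KRT85 from few reads. KRT83, another hair-type keratin of the cluster, had 93.4 ± 14.1 and 96.0 ± 15.0 normalized counts with DMSO and BRL-50481 (± SD, 3 libraries each), with a log2 fold change of 0.038 (adjusted p = 0.865 in limma). KRT10 and KRT19, of the type I cluster on chromosome 17, moved in opposite directions.

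Of 47 further keratins 8 were in the table and 39 were not, among them the basal keratins KRT5 and KRT14. Of the 8, 2 rose, none fell and 6 did not pass the threshold. KRT15, a type I keratin of basal cells, had 107.5 ± 15.8 normalized counts with DMSO and 258 ± 6.14 with BRL-50481 (± SD, 3 libraries each). The log2 difference was 1.27 (limma SE 0.127, adjusted p = 2.44e-06). KRT34, a hair-type type I keratin, went from 26.3 ± 3.80 to 51.0 ± 15.6 normalized counts (± SD, 3 libraries each). The log2 difference was 0.89 (limma SE 0.257, adjusted p = 0.00917). KRT79, a type II keratin, had 11.9 ± 7.10 and 19.2 ± 4.44 normalized counts (± SD, 3 libraries each) and did not pass (adjusted p = 0.130 in limma). The median over the 8 was 0.64, from genes with few reads.

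Among the other intermediate filament genes, 8 were tested, of which 3 were higher, 2 were lower and 3 did not pass the threshold, the median being 0.11 in log2 units. LMNA, the gene of the nuclear lamins A and C, dropped by 0.24 in log2 units (limma SE 0.0570, adjusted p = 0.00302). LMNB2 (log2 fold change −0.077) and LMNB1 (−0.029), of the B-type lamins, did not pass. SYNM, whose product synemin joins vimentin filaments, fell by 0.26 on the log2 scale (adjusted p = 0.00788 in limma), in the direction opposite to VIM. The 3 higher genes, named after their values were seen, moved in the direction of VIM. They were NES (log2 fold change 0.34), SYNC (0.66) and GFAP (0.75), with adjusted p at most 0.00344 in limma.

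Plakins tie filaments to each other and to junctions, and desmosomes and hemidesmosomes anchor keratins at the cell surface. Of 17 such genes tested 9 were higher, 2 were lower and 6 did not pass, the median being 0.24 in log2 units. The most abundant were PLEC, whose product plectin links keratin and vimentin to other structures (log2 fold change 0.66, limma SE 0.0592, adjusted p = 9.11e-07), ITGA6 (0.51), MACF1 (0.87) and DST (0.71), all higher. ITGB4, the partner of ITGA6 in hemidesmosomes, and COL17A1, another hemidesmosome gene, were chosen after their values were seen, with log2 fold changes of 1.23 and 1.13 (adjusted p at most 2.16e-07 in limma). DSP, the desmoplakin gene, also chosen after its values were seen, had 11579 ± 1806 and 10361.5 ± 162 normalized counts (± SD, 3 libraries each) and did not pass (log2 fold change −0.15, adjusted p = 0.136 in limma). In PLEC, ITGA6, MACF1, DST and DSP, DMSO replicate 1 was the highest DMSO library, whereas it was the lowest in 8 of the 9 members. It was also the lowest in COL17A1 and lay between the other DMSO libraries in ITGB4. In JUP, PKP3 and PERP of the same list, named after their values were seen, it was the lowest too. Its place over all genes was not counted. Among the cytolinker and desmosome genes named here, the DMSO spread was widest in proportion in DST and MACF1. MACF1 had 10691.5 ± 2199.7 normalized counts in DMSO against 19349 ± 178 in BRL-50481 (± SD, 3 libraries each).

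Of 30 genes of proteins that bind, modify, cleave or transport keratin and vimentin filaments, all were tested, with 14 higher, 10 lower, 6 not called and a median of 0.10. The most abundant were the chaperone gene HSPA8 (log2 fold change −2.36), the 14-3-3 gene YWHAZ (0.17), the dynein heavy chain gene DYNC1H1 (0.71) and the calpain gene CAPN2 (0.54), all called. In DYNC1H1, DMSO replicate 1 lay apart, with 34619, 24496 and 25775 normalized counts in the DMSO libraries. Its BRL-50481 libraries had 45659 ± 1039 (± SD, 3 libraries). Of 26 transcription factors and cofactors known to act on keratin or vimentin genes, 10 were higher, 10 were lower and 6 did not pass, with a median of 0.065. HIF1A (0.21), ETS1 (0.16) and CTNNB1 (0.16) were higher and the AP-1 gene FOSL1 (−0.26) was lower. The list counts stand beside 28.9% higher and 29.8% lower over all genes.

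Of the 16 mesenchymal markers 10 were higher, 2 were lower and 4 did not pass, with a median of 0.30. CD44 (0.47), MSN (0.41) and AXL (0.12) were higher. CTSB (−0.21), chosen after its values were seen, was lower. Of 12 luminal epithelial markers tested 4 were higher, 4 were lower and 4 did not pass, with a median of −0.019. Among them CLDN4 fell by 0.46 on the log2 scale, EPCAM by 0.16, ERBB2 rose by 0.19, and CLDN7 (0.11) and ELF3 (−0.14) did not pass. CDH1 had 38.2 ± 9.13 and 99.8 ± 6.07 normalized counts (± SD, 3 libraries each; log2 fold change 1.39, adjusted p = 4.28e-05 in limma). Of the 7 leukocyte and endothelial markers 4 were higher, 1 was lower and 2 did not pass, with a median of 0.48. CD68 (0.51) and PECAM1 (0.48) were higher, KDR (−0.60) was lower and CD14 (0.10) did not pass.

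**Figure D5:**
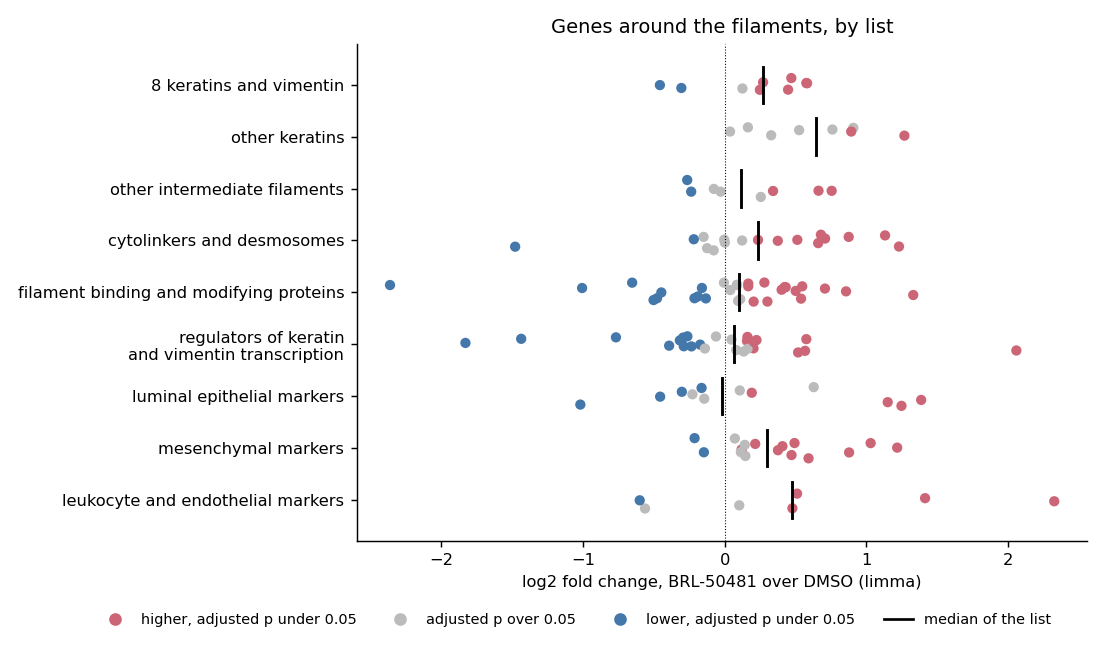
Log2 fold changes, BRL-50481 over DMSO (horizontal axis), of the tested genes of each list, coloured by call, with the median of each list as a black line. The 9 members lie between −0.46 and 0.58, inside the ranges of the lists of cytolinkers and of transcription regulators.

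The genes whose log2 values ran most like those of a member over the 6 libraries were sought among 11446 genes averaging at least 100 normalized counts. For VIM they were LAPTM5, PTTG1IP and RARRES3 (Pearson's r 1.00 each after rounding), and for KRT18 they were RHBDD3, SECTM1 and AKAP17A (r 0.999, 0.999 and 0.998). Such likeness is common here, because r was over 0.9 for 19.7% of the genes with VIM and for 20.5% with KRT18. For KRT81, where 1.58% were over 0.9, the nearest were DDIT4 (r 0.997), ACADVL (0.991) and TCEB2 (0.989). These values describe 6 libraries in 2 groups, which share the difference between the groups.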

How the data were processed

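RNA sequencing of 6 MDA-MB-231 libraries was analysed, 3 DMSO and 3 BRL-50481, grouped by their sample titles. According to the Methods and the submitters' processing notes, the authors mapped 76-base single-end reads with STAR 2.7.1a (hg38), ran htseq-count by strand with UCSC gene models and scaled the result with DESeq2 1.28. The records describe oligo-dT selection and the series record ribosomal RNA depletion. The signal that the authors deposited for each gene and library is the read count divided by the size factor of the library. The deposited table also holds the authors' fold changes, errors and p-values, which were not used.

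All values, divided by what 1 read is worth in their library (0.969 to 1.02), were whole to within 1e-06, and these reads went into edgeR and DESeq2. In 3 libraries the value of 1 read is within about 1% of 1, where this rests on the unrounded decimals. Groups were compared in R 4.3.3 by limma 3.58.1, with a variance trend, on log2(normalized count + 1), since scaled values are not counts. The filter of the Methods (at least 4 normalized counts in at least 3 libraries) left 15246 genes and removed 405. Beside it, edgeR 4.0.16 (quasi-likelihood, TMM) called 58.6% and DESeq2 1.42.0 called 55.4% of the genes. Further alternatives comprised a pseudocount of 0.5 or 4, no filter, a mean of at least 20, quantile normalization, median centring, no variance trend, a replicate block, each library left out, and a loess correction (span 0.5) for transcript length and GC content over 14738 genes. The fits were also run on simulated counts in which few genes were changed. That setting cannot show how they perform where most genes are called, as here.

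Lengths, positions and shared 76-base stretches came from canonical transcripts of GENCODE release 44 on hg38, and 96.5% of the genes matched by symbol or older symbol. Promoters came from RefSeq (GRCh38). Ratios were compared with an exact permutation test (scipy 1.17.1), and coding sequences were aligned with Biopython 1.88. The members and gene lists were chosen with earlier results of these data known. Named were all members, the 4 most abundant genes of each list, genes that check the line, other keratins called with a mean of at least 20, and the 3 most similar genes of VIM, of the top type I and of the top type II keratin. Others are marked as chosen after their values were seen. One gene that this rule names is not reported here.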

Additional observations from a re-analysis of the deposited data

How the results depend on the processing

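Of 154 log2 fold changes of the 9 genes under the alternatives, none changed direction, 145 stayed on the same side of the threshold, 7 lost the call and 2 gained it. KRT8 (0.25, adjusted p = 0.0592) and KRT86 (0.27, adjusted p = 0.0868) were not called by limma without a variance trend, nor KRT86 with quantile normalization (0.22, adjusted p = 0.0829), and KRT81 was called after the length and GC correction (0.20). With each library left out, KRT81 lay between 0.025 and 0.198, called without DMSO replicate 2, and KRT86 between 0.188 and 0.364 (adjusted p up to 0.142), not called without DMSO replicates 1 or 2 or BRL-50481 replicates 2 or 3. The cause was not tested. In edgeR and DESeq2 the calls of all 9 genes were those of limma. With a log2 fold change over 1 as a further criterion, 0 members were higher and 0 were lower.

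Quantile normalization gave differences of 0.50 for the KRT8 to KRT18 ratio, 0.65 for vimentin to keratins and 0.32 for type II to type I, the last of which was 0.36 without division by length and 0.43 without KRT81 and KRT86. All were positive. KRT86, with 293 to 419.7 normalized counts per library, is the member whose precision depth limits most.

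The replicate numbers do not pair the samples by any label. Same-numbered libraries had correlations of their deviations of 0.121, 0.104 and 0.0514. Only BRL-50481 replicate 3 correlated better with another number, that of DMSO replicate 2 (0.0607). With the replicate number as a block, 4440 genes were higher and 4589 lower, and 6 members were higher and 2 lower, with no call of a member changed.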

Other observations

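Keratin-associated proteins cross-link hair keratins in the hair shaft. They were looked at after the values of the keratins had been seen, and 2 were in the table. KRTAP2-3 had 35.7, 75.4 and 40.9 normalized counts in DMSO and 109.7, 119 and 110.5 in BRL-50481, without overlap (log2 fold change 1.22, standard error 0.235, adjusted p = 0.000618 in limma). KRTAP4-8 had 5.95, 6.86 and 1.02 normalized counts in DMSO and 26.2, 15.1 and 19.4 in BRL-50481 (log2 fold change 2.11, standard error 0.527, adjusted p = 0.00379 in limma), from few reads. Members of this family resemble one another, and whether shared reads affect either value was not tested. KRT81 and KRT86, the hair-type keratins with more reads, had log2 fold changes of 0.13 and 0.27.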
